A study of Mus musculus with 4 samples.

Results

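Splicing factors and spliceosome proteins were taken from the gene table of MC38 cells by their symbols, as every row whose name begins with Snrp, Sf3a, Sf3b, U2af, Prpf, Hnrnp or Srsf followed by a digit. Of 36445 genes in the table, 68 met this rule, after 3 rows with "-ps" in the name were left out. They fall into 12 Snrp, 9 Sf3, 3 U2af, 13 Prpf, 11 Srsf and 20 Hnrnp genes. GENCODE release M21 lists 67 of them as protein coding and Snrpert as a processed pseudogene. MC38 is a mouse colon cancer cell line. The study treated it with 5-FU at 1 mM or with PBS for 24 h and sequenced polyadenylated RNA from 2 libraries per group. The labels name no other agent, genotype or clone, and they do not say whether libraries of a group came from separate cultures, so p-values measure the spread between these libraries, which may be technical. Levels are in FPKM, fragment numbers scaled for transcript length and library size.

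Pre-mRNA splicing is carried out by the spliceosome, which is built on each intron from small nuclear ribonucleoproteins (snRNPs), each a small nuclear RNA with its proteins. U1 recognises the start of the intron, U2AF and U2 its end and branch point, and the tri-snRNP of U4, U6 and U5 then joins and is remodelled into the catalytic enzyme. SR proteins (Srsf genes) mostly bind exons and promote the use of nearby splice sites, while hnRNP proteins coat nascent transcripts and often oppose them. The drug 5-fluorouracil (5-FU) resembles uracil; its products are built into RNA and DNA and inhibit the enzyme that makes thymidylate.

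Of the 68 members, 67 reached the level set for testing, 1 FPKM or more in 2 or more of the 4 libraries. The exception, Srsf12, an SR-like splicing repressor gene, stood at 0.0763 and 0.0770 FPKM after 5-FU and is listed at 0 for PBS replicates 1 and 2. Estimated depth was 20.8 and 20.6 M reads in the 5-FU libraries and 41.3 and 41.6 M reads in the PBS libraries. The members are abundant genes, and all but 7 of the 67 tested had at least 1000 estimated reads in every library, so their precision is set mainly by the number of libraries. The epithelial markers of the labelled colon origin were near the floor in both groups. The 10 genes, Epcam, Cdh1, Cdx2 and Krt20 among them, summed to 2.09 and 2.34 FPKM in 5-FU and between 0.799 and 1.60 FPKM in PBS, and 0 of the 10 reached 1 FPKM in 2 libraries. All 8 mesenchymal markers did, led by Vim at 1069 and 1036 FPKM in the 5-FU libraries, against 973 and 889.7 FPKM in the PBS libraries. Of 7 leukocyte markers 2 reached the level, Cd68 and Lyz2, and the list summed to 18.8 and 20.5 FPKM in 5-FU and to between 7.88 and 22.5 FPKM in PBS. Cd68, a lysosomal protein gene, made up most of that sum in every library. The leukocyte genes Cd3e and Ptprc were at 0 and at no more than 0.0342 FPKM in every library, and the part of other cells in the results was not tested.

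The PBS libraries differed from each other much more than the 5-FU libraries did, in these genes as in the whole table. Of the 67 tested members, 60 (89.6%) had more FPKM in PBS replicate 1 than in replicate 2, as did 57.3% of all 11644 tested genes. The median difference between the PBS libraries (replicate 1 minus replicate 2) was 0.30 on the log2(FPKM + 1) scale for the members and 0.07 for all tested genes. The median absolute difference of the members was 0.06 between the 5-FU libraries and 0.31 between the PBS libraries, beside 0.07 and 0.27 for all tested genes. The SR protein genes stood out, with a median of 0.50 between the PBS libraries. Srsf6, Srsf1, Srsf2 and Hnrnph1 were 2.76-, 2.38-, 2.27- and 2.19-fold higher in PBS replicate 1 than in replicate 2, and with Sf3a2 (2.12-fold) they were the 5 members whose PBS libraries lay over 1 log2 apart. For genes of this kind the result of a comparison with 5-FU depends on which PBS library is used, as given beside each class.

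**Figure D1:**
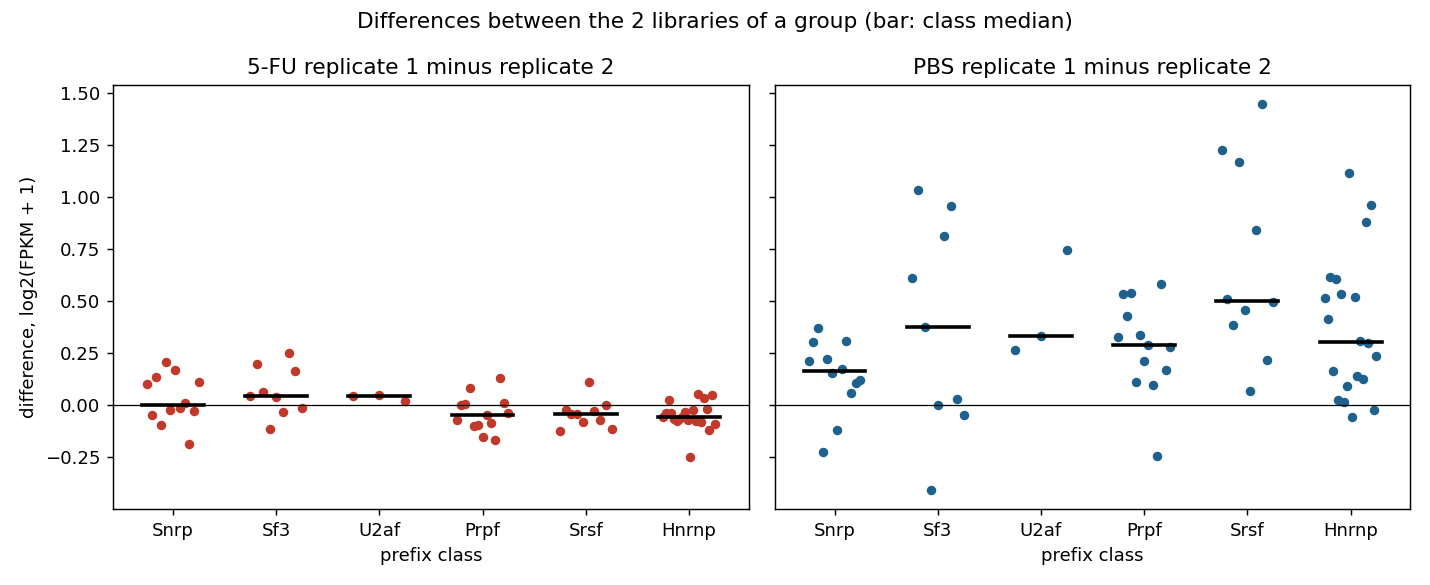
Difference between replicate 1 and replicate 2 in each group, on the log2(FPKM + 1) scale, for every tested member by prefix class; points are genes and bars are class medians. The 5-FU libraries (left) lie within 0.25 of each other, while most members were higher in PBS replicate 1 (right), with a class median of 0.50 for Srsf.

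After 5-FU, 24 of the 67 tested members rose, 15 fell and 28 did not pass (limma, two-sided Benjamini-Hochberg adjusted p under 0.05 over all 11644 tested genes; the same test gives every adjusted p below). Of all tested genes, 22.1% rose and 31.2% fell, and 53.3% passed in either direction, beside 58.2% of the members; these shares are given as a description, with no test of the set. The median log2 difference (5-FU minus PBS) was 0.31 over the members and -0.10 over all tested genes. In 32 members both 5-FU libraries lay above both PBS libraries and in 18 both lay below, beside 35.9% and 45.1% of all tested genes (50 of 67 without overlap, beside 81%). Signs were shared within some classes. All 12 Snrp, all 9 Sf3 and all 3 U2af genes had a positive difference in this fit, whereas 13 of 20 Hnrnp genes had a negative difference. With quantile normalization 2 Snrp and 2 Sf3 genes were negative, and with the exonic length trend removed 3 Snrp genes were. The Srsf and Prpf genes were mixed.

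The calls rest on the closeness of the 5-FU libraries. Without 5-FU replicate 1, 1 member was higher and 0 lower (limma; 14 and 10 at an unadjusted p under 0.05, beside 2.22% and 2.04% of all tested genes called). Without 5-FU replicate 2, 1 was higher and 2 lower (16 and 10 unadjusted, beside 2.52% and 2.57%). The error then comes from the PBS pair alone. Leaving out PBS replicate 1 gave 42 higher and 17 lower (37.7% and 42.7% of all tested genes). Leaving out PBS replicate 2 gave 32 higher and 26 lower (32.8% and 45.1%). In these fits the error comes from the close 5-FU pair alone, so their counts and p-values carry no measure of the spread between PBS libraries.

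**Figure D2:**
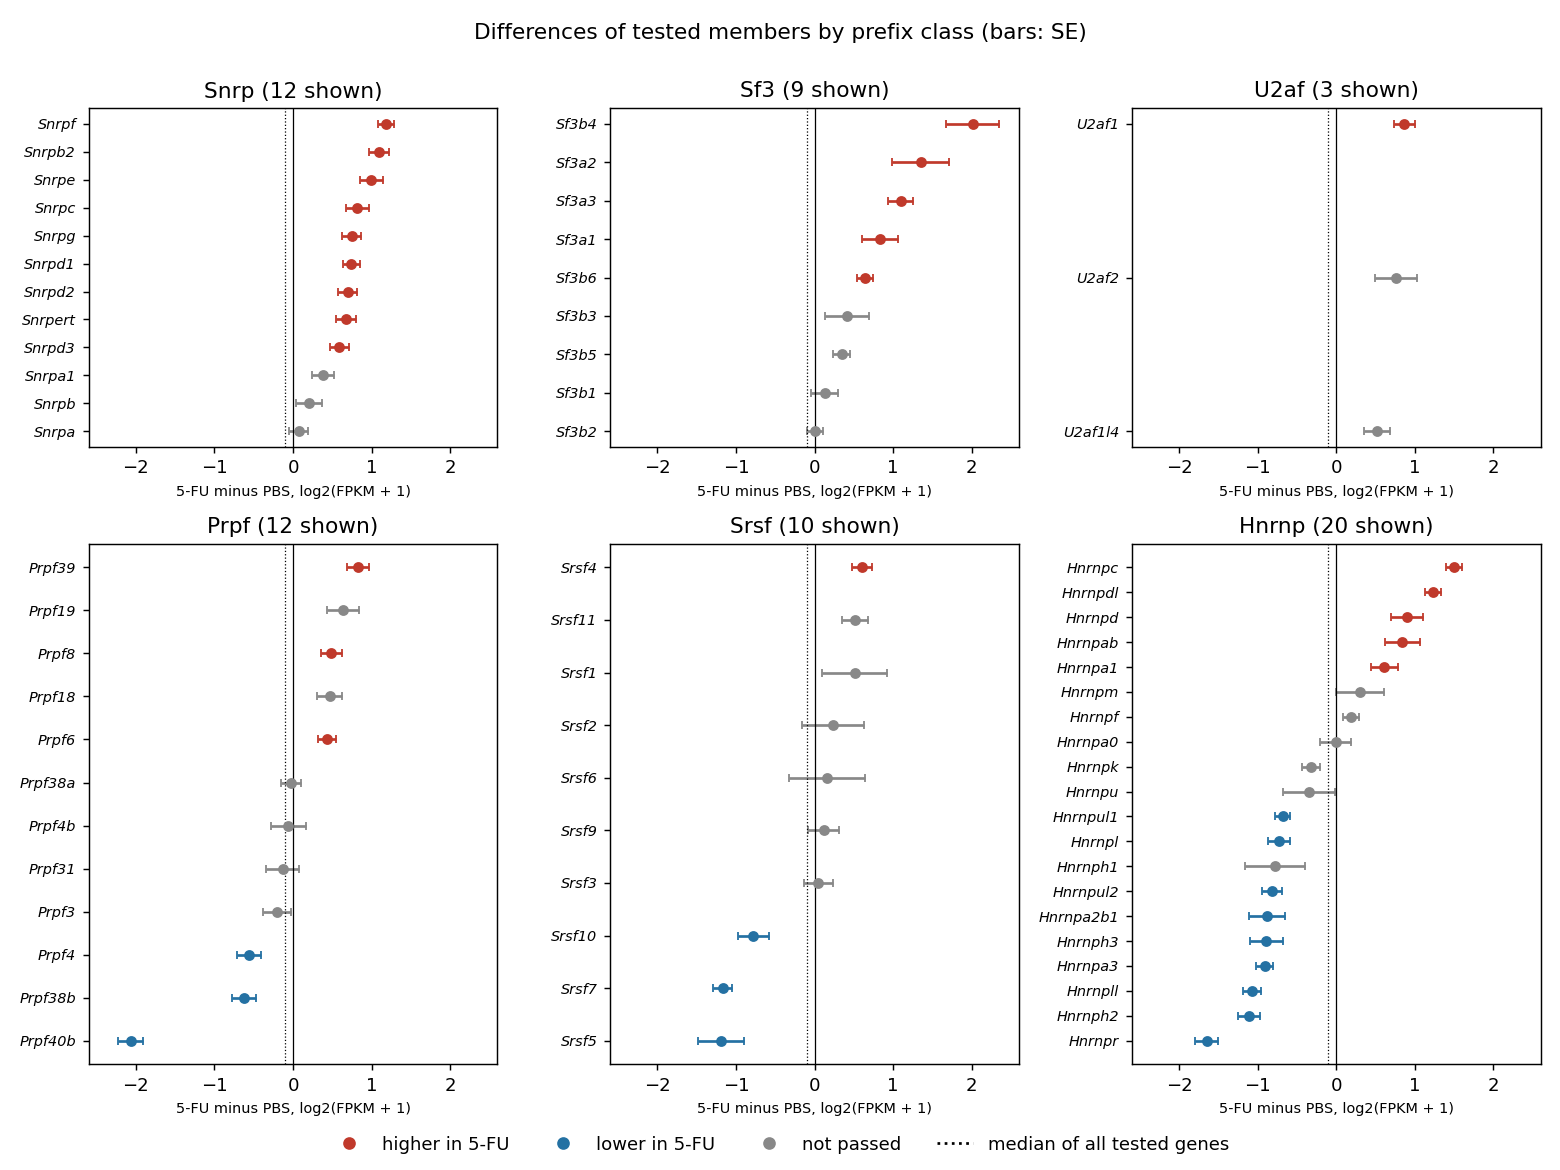
Log2 difference (5-FU minus PBS, log2(FPKM + 1) scale) of 66 of the 67 tested members by prefix class, with SE bars; red points rose, blue points fell and grey points did not pass, and the dotted line is the median of all tested genes (-0.10). All Snrp, Sf3 and U2af points lie right of 0, and the Hnrnp genes spread from -1.65 for Hnrnpr to 1.50 for Hnrnpc.

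The start regions of the members are described because many members of a class moved together. RefSeq windows on build GRCm38.p6, 250 bases before to 50 after a RefSeq start, were found for 58 of the 68 members, and 7 motifs were searched on both strands. The window nearest to the GENCODE start was taken with no limit on distance. Some starts lay far from it, as in Prpf6 (9451 bases), Hnrnpl (2349) and Snrpc (1937), and the windows of Prpf6 and Snrpc hold the ETS core. The ETS core CCGGAAG was present in 11 of 21 windows of members that rose (52.4%) and in 2 of 13 of members that fell (15.4%). It was present in 8.86% of all 32851 windows in the set and in 20.5% of the windows of 8510 tested genes, with 25.6% among those that rose and 17.0% among those that fell. By class the ETS core was in 4 of 9 Snrp, 4 of 11 Srsf and 2 of 18 Hnrnp windows. In the Sf3 class it was in the windows of Sf3a1, Sf3a2, Sf3a3 and Sf3b6, which rose. It was also in those of Sf3b2 and Sf3b3, which did not pass, and it was absent from that of Sf3b1. Direction and family therefore cannot be told apart here. The CCAAT box, searched as those 5 letters, was in 8 of 21 windows of members that rose (38.1%) and 9 of 13 that fell (69.2%), beside 37.4% of all windows and 40.0% of those of tested genes. Over all tested genes its share was nearly equal in those that rose (40.6%) and those that fell (39.4%), and among members it was in 12 of 18 Hnrnp and 3 of 9 Snrp windows. A match of letters is a description and not a bound site. The other 5 motifs were in few member windows. The E-box CACGTG was in 8 of 58 (13.8%, beside 7.15% of all windows and 10.7% of those of tested genes). The TATA box sequence TATAAA was in 6 (10.3%, beside 13.6% and 6.63%). The NRF1 sequence GCATGCGC was in 2 (3.45%, beside 2.71% and 6.03%). The YY1 motif was in 2 (3.45%, beside 0.852% and 2.48%) and the ZBTB33 motif in 1 (1.72%, beside 0.466% and 1.25%).

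The windows of 7 members are shown, in which capitals mark the ETS core and the CCAAT box on either strand: those of Snrpb2, Snrpe and Sf3a3, which rose and hold the ETS core; Hnrnpr and Hnrnpa3, which fell and hold CCAAT boxes; and Hnrnpc, which rose and holds CCAAT boxes, and Srsf5, which fell and holds the ETS core. In Snrpe the forward and reverse matches overlap in a single palindrome. The windows lie at chr2:143062819-143063118, plus strand; chr1:133610231-133610530, minus strand; chr4:124714611-124714910, plus strand; chr14:52103972-52104271, minus strand; chr4:136310692-136310991, plus strand; chr2:75659009-75659308, plus strand; and chr12:80945249-80945548, plus strand, in the order printed.
Snrpb2: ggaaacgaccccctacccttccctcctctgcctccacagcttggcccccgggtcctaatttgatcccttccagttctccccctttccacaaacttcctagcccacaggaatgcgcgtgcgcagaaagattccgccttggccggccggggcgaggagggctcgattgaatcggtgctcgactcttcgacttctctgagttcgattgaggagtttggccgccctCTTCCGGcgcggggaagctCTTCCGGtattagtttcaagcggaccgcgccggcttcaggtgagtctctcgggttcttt
Snrpe: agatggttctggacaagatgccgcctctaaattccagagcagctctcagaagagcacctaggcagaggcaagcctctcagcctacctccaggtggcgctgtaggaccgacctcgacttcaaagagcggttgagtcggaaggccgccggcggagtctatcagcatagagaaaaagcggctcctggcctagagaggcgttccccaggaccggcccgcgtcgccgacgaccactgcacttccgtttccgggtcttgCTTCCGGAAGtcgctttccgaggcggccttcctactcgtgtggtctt
Sf3a3: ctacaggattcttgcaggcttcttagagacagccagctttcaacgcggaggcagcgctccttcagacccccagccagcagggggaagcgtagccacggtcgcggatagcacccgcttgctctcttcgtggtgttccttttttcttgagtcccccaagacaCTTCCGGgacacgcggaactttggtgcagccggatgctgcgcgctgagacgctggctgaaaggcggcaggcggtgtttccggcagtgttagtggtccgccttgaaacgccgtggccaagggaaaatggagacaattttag
Hnrnpc: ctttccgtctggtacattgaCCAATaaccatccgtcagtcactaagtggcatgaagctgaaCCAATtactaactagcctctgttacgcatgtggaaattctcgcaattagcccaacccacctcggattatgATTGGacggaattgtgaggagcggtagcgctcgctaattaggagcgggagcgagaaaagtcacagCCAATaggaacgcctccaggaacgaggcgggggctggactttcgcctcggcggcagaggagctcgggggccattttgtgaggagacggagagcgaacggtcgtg
Hnrnpr: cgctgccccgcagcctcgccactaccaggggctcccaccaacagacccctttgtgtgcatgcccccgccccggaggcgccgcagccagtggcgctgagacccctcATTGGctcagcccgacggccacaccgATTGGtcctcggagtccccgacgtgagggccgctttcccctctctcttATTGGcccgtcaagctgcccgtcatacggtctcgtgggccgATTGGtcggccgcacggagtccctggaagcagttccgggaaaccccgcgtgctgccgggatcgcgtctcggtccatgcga
Hnrnpa3: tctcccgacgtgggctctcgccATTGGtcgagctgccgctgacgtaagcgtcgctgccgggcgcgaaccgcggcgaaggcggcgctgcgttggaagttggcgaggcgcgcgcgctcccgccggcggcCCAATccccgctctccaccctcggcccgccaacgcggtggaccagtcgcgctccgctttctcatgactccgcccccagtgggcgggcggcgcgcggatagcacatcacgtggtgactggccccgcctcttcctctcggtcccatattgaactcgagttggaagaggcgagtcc
Srsf5: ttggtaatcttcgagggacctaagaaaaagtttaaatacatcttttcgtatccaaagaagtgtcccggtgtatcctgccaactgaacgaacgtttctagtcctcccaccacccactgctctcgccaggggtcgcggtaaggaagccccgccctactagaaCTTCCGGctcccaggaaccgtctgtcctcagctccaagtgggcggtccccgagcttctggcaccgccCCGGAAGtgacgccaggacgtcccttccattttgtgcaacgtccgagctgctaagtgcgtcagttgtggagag

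The Sm proteins form the ring of 7 subunits that encircles the U1, U2, U4 and U5 snRNAs. Of their 7 genes, 6 rose (the exception was Snrpb) and their summed level was 1570.3 and 1504.5 FPKM in the 5-FU libraries, against 982 and 895 FPKM in the PBS libraries. Snrpf had 189 and 193 FPKM in the 5-FU libraries, against 86.9 and 80.5 FPKM in the PBS libraries. It rose 2.28-fold (log2 difference 1.18 ± 0.10 SE, adjusted p = 0.0032), the largest change in the ring. Snrpe measured 114 and 113 FPKM in the 5-FU libraries, against 62.7 and 50.5 FPKM in the PBS libraries, a 2.00-fold rise (log2 difference 1.00 ± 0.14 SE, adjusted p = 0.0064). In both genes the 5-FU libraries agreed closely with each other and lay well above both PBS libraries.

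Snrpg, the most abundant Sm gene in both 5-FU libraries, had 354 and 327 FPKM in the 5-FU libraries, against 212 and 194 FPKM in the PBS libraries (log2 difference 0.74 ± 0.12 SE, adjusted p = 0.00789). Snrpd1 had 164 and 167 FPKM in the 5-FU libraries, against 104 and 93.4 FPKM in the PBS libraries (log2 difference 0.74 ± 0.11 SE, adjusted p = 0.00734). Snrpd2 had 310.0 and 275 FPKM in the 5-FU libraries, against 173 and 187 FPKM in the PBS libraries (log2 difference 0.70 ± 0.12 SE, adjusted p = 0.0105). The groups did not overlap in any of these 3. Snrpd3 showed the smallest rise of the 6, with 301 and 303 FPKM in the 5-FU libraries, against 213 and 188 FPKM in the PBS libraries (log2 difference 0.59 ± 0.12 SE, adjusted p = 0.0148; adjusted p over 0.05 with quantile normalization). Snrpb, which encodes the SmB subunit, had 139 and 126 FPKM in the 5-FU libraries, against 131 and 101 FPKM in the PBS libraries. The groups overlapped and Snrpb did not pass (limma, log2 difference 0.20 ± 0.16 SE, adjusted p = 0.339). The most and the least abundant Sm gene were 3.10- and 2.90-fold apart in the 5-FU libraries and 3.39- and 3.84-fold apart in the PBS libraries, and Snrpe was the lowest in all 4.

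Of the 4 genes of proteins particular to U1 or U2, 2 rose and 2 did not pass. Snrpb2, which encodes a U2 snRNA-binding protein, had 87.0 and 93.0 FPKM in the 5-FU libraries, against 38.3 and 45.0 FPKM in the PBS libraries and rose 2.16-fold (log2 difference 1.10 ± 0.13 SE, adjusted p = 0.00459). The gene of its binding partner, Snrpa1, had 34.1 and 35.3 FPKM in the 5-FU libraries, against 29.5 and 23.7 FPKM in the PBS libraries, with no overlap between the groups, but did not pass (log2 difference 0.38 ± 0.14 SE, adjusted p = 0.082). For U1, Snrpc (a protein that stabilises pairing with the 5′ splice site) had 22.4 and 19.3 FPKM in the 5-FU libraries, against 12.4 and 10.5 FPKM in the PBS libraries and rose (log2 difference 0.82 ± 0.15 SE, adjusted p = 0.0118). Snrpa, which binds a U1 snRNA loop, had 70.6 and 65.7 FPKM in the 5-FU libraries, against 69.8 and 60.1 FPKM in the PBS libraries, overlapping values that did not pass (log2 difference 0.07 ± 0.13 SE, adjusted p = 0.655). Snrpert, the pseudogene, had 21.0 and 24.0 FPKM in the 5-FU libraries, against 14.0 and 13.4 FPKM in the PBS libraries (log2 difference 0.67 ± 0.12 SE, adjusted p = 0.0127). Its call was lost with the gene span trend or the exonic length trend removed, and its log2 difference was -0.017 in the second case. It shares 55.7% of its 50-base stretches with other genes, most with Snrpe, so its reads cannot be told apart from those of Snrpe with certainty.

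Among all tested genes, 22.1% rose and 31.2% fell, and the shares for fits with a library left out are given above. As a class, 9 of the 12 Snrp genes rose, 0 fell (limma, 0 also at an unadjusted p under 0.05) and the median log2 difference was 0.72. Without Snrpert these were 8 of 11, 0 and 0.74. With PBS replicate 1 left out 11 passed as higher, with PBS replicate 2 left out 10, and 0 as lower in both fits. Without 5-FU replicate 1 or 2 no Snrp gene passed (6 and 7 higher and 0 lower at an unadjusted p under 0.05). With the trend of the difference with exonic length removed, 8 rose and the median was 0.53.

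**Figure D3:**
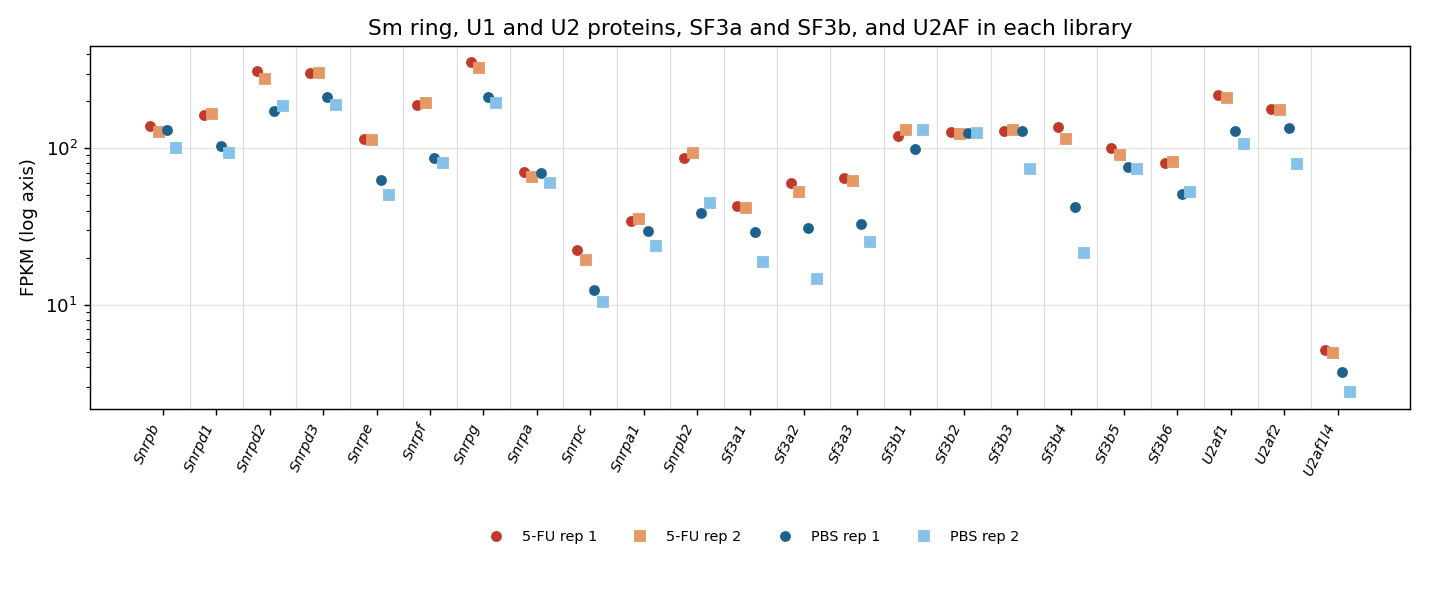
FPKM of the Sm ring, U1 and U2, SF3a, SF3b and U2AF genes in each library, on a log axis; red and orange are 5-FU replicates 1 and 2, dark and light blue PBS replicates 1 and 2. The 5-FU points lie above both PBS points for 6 of 7 Sm genes and all 3 Sf3a genes, and they overlap the PBS points for Snrpb, Snrpa, Sf3b1, Sf3b2 and Sf3b3.

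SF3a and SF3b are the complexes within U2 that hold the branch point. All 3 SF3a genes rose. Sf3a3 had 64.3 and 61.5 FPKM in the 5-FU libraries, against 33.0 and 25.2 FPKM in the PBS libraries (log2 difference 1.10 ± 0.16 SE, adjusted p = 0.00678). Sf3a2 had 60.0 and 52.2 FPKM in the 5-FU libraries, against 31.0 and 14.6 FPKM in the PBS libraries (log2 difference 1.35 ± 0.36 SE, adjusted p = 0.0331), and its PBS libraries differed 2.12-fold. Sf3a1 had 42.8 and 41.5 FPKM in the 5-FU libraries, against 29.0 and 18.7 FPKM in the PBS libraries (log2 difference 0.83 ± 0.22 SE, adjusted p = 0.0346). In each of the 3 both 5-FU libraries were above both PBS libraries, and the calls of Sf3a1 and Sf3a2 were lost with no filter on low values.

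Within SF3b, 2 of 6 genes rose. Sf3b4 showed the largest rise of any member, 3.92-fold, with 136 and 114 FPKM in the 5-FU libraries, against 42.4 and 21.4 FPKM in the PBS libraries (log2 difference 2.01 ± 0.34 SE, adjusted p = 0.00986). It encodes an RNA-binding subunit that contacts the intron near the branch point, and 43.6% of its exonic 50-base stretches are shared with other genes, most with the processed pseudogene Gm7935, itself at 3.01 and 2.73 FPKM in the 5-FU libraries, against 1.1 and 0.376 FPKM in the PBS libraries. Sf3b6, whose product lies against the branch point adenosine, had 80.8 and 81.4 FPKM in the 5-FU libraries, against 50.8 and 52.6 FPKM in the PBS libraries (log2 difference 0.64 ± 0.10 SE, adjusted p = 0.00789). The other 4 SF3b genes did not pass. Sf3b1, the large scaffold subunit and a recurrent target of cancer mutations, had 120.1 and 129.9 FPKM in the 5-FU libraries, against 99.0 and 132 FPKM in the PBS libraries (log2 difference 0.13 ± 0.17 SE, adjusted p = 0.55). Sf3b2 had 128 and 124 FPKM in the 5-FU libraries, against 125 and 125 FPKM in the PBS libraries (log2 difference 0.01 ± 0.10 SE, adjusted p = 0.95), the smallest difference of the class. Sf3b3 had 129 and 132 FPKM in the 5-FU libraries, against 129.5 and 73.3 FPKM in the PBS libraries and Sf3b5 101 and 90.1 FPKM in the 5-FU libraries, against 75.8 and 74.2 FPKM in the PBS libraries (log2 differences 0.41 and 0.34, adjusted p = 0.272 and 0.0554). The groups overlapped in Sf3b1, Sf3b2 and Sf3b3 and not in Sf3b5.

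The Sf3 and U2af counts that follow stand beside 22.1% of all tested genes that rose and 31.2% that fell. The shares for fits with a library left out are given above. Over the Sf3 class, 5 of 9 rose and 0 fell (limma, 6 and 0 at an unadjusted p under 0.05), with a median log2 difference of 0.64. Without either PBS library 7 rose and 0 fell, and without 5-FU replicate 1 or 2 none passed in either direction (3 and 4 higher and 0 lower unadjusted). U2AF binds the end of the intron before U2 arrives. U2af1, the subunit that reads the AG dinucleotide, had 217 and 211 FPKM in the 5-FU libraries, against 128 and 106 FPKM in the PBS libraries and rose 1.83-fold (log2 difference 0.87 ± 0.13 SE, adjusted p = 0.00761). U2af2, the subunit that binds the polypyrimidine tract, had 177 and 175 FPKM in the 5-FU libraries, against 134 and 79.5 FPKM in the PBS libraries; the groups did not overlap, but the PBS libraries differed 1.69-fold and it did not pass (log2 difference 0.76 ± 0.26 SE, adjusted p = 0.0656). The paralog U2af1l4 was low, at 5.16 and 4.95 FPKM in the 5-FU libraries, against 3.74 and 2.77 FPKM in the PBS libraries (log2 difference 0.52 ± 0.17 SE, adjusted p = 0.0548). So 1 of the 3 U2af genes rose and 0 fell (limma; 3 and 0 unadjusted), 3 rose without either PBS library and 0 passed without either 5-FU library (1 higher and 0 lower unadjusted in each of those fits). U2af1 and U2af2 share 21.7% and 14.7% of their 50-base stretches with other annotated genes.

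Among 13 Prpf genes, named for yeast pre-mRNA processing mutants, 3 rose, 3 fell and 7 did not pass, beside 22.1% of all tested genes that rose and 31.2% that fell. The median log2 difference of the 13 was -0.06. That median was positive with median-ratio scaling (0.058), with quantile normalization (0.067), with the gene span (0.053) or exonic length (0.13) trend removed and with PBS replicate 1 left out (0.14). Prpf8, the scaffold that cradles the catalytic centre, had 108 and 111 FPKM in the 5-FU libraries, against 86.0 and 70.7 FPKM in the PBS libraries (log2 difference 0.48 ± 0.13 SE, adjusted p = 0.0368). Prpf6, which bridges U5 to U4 and U6, had 50.3 and 49.9 FPKM in the 5-FU libraries, against 39.3 and 34.8 FPKM in the PBS libraries (log2 difference 0.43 ± 0.11 SE, adjusted p = 0.0326). Prpf39, whose yeast counterpart belongs to U1, had 29.0 and 32.3 FPKM in the 5-FU libraries, against 18.2 and 15.5 FPKM in the PBS libraries (log2 difference 0.83 ± 0.14 SE, adjusted p = 0.00904). The 5-FU libraries lay above both PBS libraries in each. The calls of Prpf8 and Prpf6 were lost with no filter on low values and with quantile normalization, and that of Prpf6 also with the replicate number as a block.

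The largest fall of any member was in Prpf40b, a relative of the yeast U1 protein Prp40, which had 0.614 and 0.811 FPKM in the 5-FU libraries, against 5.58 and 6.8 FPKM in the PBS libraries and was 8.69-fold lower (log2 difference -2.07 ± 0.16 SE, adjusted p = 0.00278). Both 5-FU values lay under 1 FPKM, so Prpf40b reached the level for testing through the PBS libraries alone. Prpf38b fell, at 20.9 and 22.4 FPKM in the 5-FU libraries, against 38.2 and 30.1 FPKM in the PBS libraries (log2 difference -0.63 ± 0.15 SE, adjusted p = 0.0265; lost with no filter and with the exonic length trend removed), while its paralog Prpf38a overlapped between the groups, at 9.59 and 10.3 FPKM in the 5-FU libraries, against 10.6 and 9.71 FPKM in the PBS libraries (log2 difference -0.02 ± 0.13 SE, adjusted p = 0.891). Prpf4, a U4 and U6 protein, fell, at 5.78 and 6.01 FPKM in the 5-FU libraries, against 10.3 and 8.22 FPKM in the PBS libraries (log2 difference -0.56 ± 0.15 SE, adjusted p = 0.0356; lost under 4 of 7 alternatives that kept all libraries). Its binding partner Prpf3 had 15.3 and 15.3 FPKM in the 5-FU libraries, against 20.9 and 15.2 FPKM in the PBS libraries and did not pass (log2 difference -0.21 ± 0.18 SE, adjusted p = 0.36).

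Other Prpf genes did not pass. Prpf31, a U4 protein whose gene is mutated in human retinitis pigmentosa, had 10.6 and 9.91 FPKM in the 5-FU libraries, against 13.9 and 9.22 FPKM in the PBS libraries (log2 difference -0.13 ± 0.21 SE, adjusted p = 0.62). Prpf19, the ubiquitin ligase of the Prp19 complex, had 62.1 and 62.1 FPKM in the 5-FU libraries, against 47.9 and 32.7 FPKM in the PBS libraries, with no overlap (log2 difference 0.64 ± 0.20 SE, adjusted p = 0.0519). The second-step factor Prpf18 and the kinase gene Prpf4b had log2 differences of 0.47 and -0.06 (adjusted p = 0.0624 and 0.828). With PBS replicate 1 left out 6 Prpf genes were higher and 3 lower, with PBS replicate 2 left out 5 and 7, with 5-FU replicate 1 left out 0 and 0 (limma; 1 and 1 unadjusted) and with 5-FU replicate 2 left out 0 and 1 (1 and 1 unadjusted).

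The SR protein genes split within the family. Of 10 tested, 3 fell, 1 rose and 6 did not pass, beside 31.2% of all tested genes that fell and 22.1% that rose. Srsf7 had 33.0 and 33.0 FPKM in the 5-FU libraries, against 81.3 and 69.9 FPKM in the PBS libraries, a 2.29-fold lower mean after 5-FU (log2 difference -1.17 ± 0.12 SE, adjusted p = 0.0039). Srsf5 had 14.9 and 15.2 FPKM in the 5-FU libraries, against 48.0 and 26.4 FPKM in the PBS libraries and was 2.48-fold lower (log2 difference -1.19 ± 0.29 SE, adjusted p = 0.027), with PBS libraries 1.82-fold apart. Srsf10, which represses splicing when it is dephosphorylated, had 18.2 and 18.5 FPKM in the 5-FU libraries, against 38.6 and 26.8 FPKM in the PBS libraries (log2 difference -0.78 ± 0.20 SE, adjusted p = 0.0287). In all 3 both 5-FU libraries were below both PBS libraries. The calls of Srsf5 and Srsf10 were lost with no filter on low values, and that of Srsf10 also with the exonic length trend removed. Srsf4 was the member that rose, with 11.4 and 10.5 FPKM in the 5-FU libraries, against 7.07 and 6.69 FPKM in the PBS libraries (log2 difference 0.60 ± 0.13 SE, adjusted p = 0.0171).

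For 5 of the other 6 tested SR genes the PBS libraries overlapped the 5-FU libraries. Srsf2, the most abundant SR gene in both 5-FU libraries, had 96.3 and 99.1 FPKM in the 5-FU libraries, against 125 and 55.0 FPKM in the PBS libraries (log2 difference 0.23 ± 0.40 SE, adjusted p = 0.643). Srsf6 had 81.1 and 85.2 FPKM in the 5-FU libraries, against 123 and 44.7 FPKM in the PBS libraries (log2 difference 0.16 ± 0.49 SE, adjusted p = 0.801). Srsf1 had 61.0 and 66.6 FPKM in the 5-FU libraries, against 68.5 and 28.7 FPKM in the PBS libraries (log2 difference 0.51 ± 0.42 SE, adjusted p = 0.345). In Srsf2 and Srsf6 both 5-FU libraries lay between the PBS libraries, as they did in Srsf1, and the sign of all 3 turned with the PBS library used. With PBS replicate 1 left out, limma gave log2 differences of 0.82 for Srsf2, 0.88 for Srsf6 and 1.12 for Srsf1. With PBS replicate 2 left out it gave -0.35, -0.56 and -0.10. Srsf3, Srsf9 and Srsf11 did not pass either, with log2 differences of 0.05, 0.12 and 0.52 (adjusted p = 0.84, 0.638 and 0.0509).

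Over the Srsf class the median log2 difference was 0.14. Leaving out PBS replicate 1 gave 7 higher, 3 lower and a median of 0.50, and leaving out PBS replicate 2 gave 2, 6 and -0.27. Leaving out 5-FU replicate 1 or 2 gave 0 and 0 (limma; 0 higher and 2 lower unadjusted in each). Most SR genes carry a poison exon or other isoform that is destroyed by nonsense-mediated decay, by which they limit their own output, and GENCODE lists a nonsense-mediated decay transcript for 9 of the 10 tested Srsf genes. A gene-level FPKM adds such transcripts to the coding ones, so these values do not say how much of each level is coding.

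The hnRNP genes spread widely in both directions. Of 20, 9 fell, 5 rose and 6 did not pass, beside 31.2% of all tested genes that fell and 22.1% that rose. The median log2 difference of the class was -0.51. Hnrnpc, whose product binds uridine tracts on nascent RNA, had 333 and 351 FPKM in the 5-FU libraries, against 121 and 119 FPKM in the PBS libraries and rose 2.85-fold (log2 difference 1.50 ± 0.10 SE, adjusted p = 0.0027). Hnrnpdl had 76.0 and 79.2 FPKM in the 5-FU libraries, against 32.6 and 32.3 FPKM in the PBS libraries (log2 difference 1.23 ± 0.10 SE, adjusted p = 0.00287). Its relatives Hnrnpd, which encodes the AU-rich element binding protein AUF1, and Hnrnpab also rose. Hnrnpd had 77.6 and 81.4 FPKM in the 5-FU libraries, against 50.9 and 34.8 FPKM in the PBS libraries (log2 difference 0.90 ± 0.20 SE, adjusted p = 0.021; lost with no filter on low values). Hnrnpab had 429 and 449 FPKM in the 5-FU libraries, against 302 and 198 FPKM in the PBS libraries (log2 difference 0.84 ± 0.23 SE, adjusted p = 0.0334; lost with no filter, with quantile normalization and with the exonic length trend removed). All 3 genes of this D-type subfamily had 5-FU libraries above both PBS libraries.

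Hnrnpa1, the classical antagonist of SR proteins and the most abundant hnRNP gene in all 4 libraries, had 599 and 614 FPKM in the 5-FU libraries, against 458 and 343 FPKM in the PBS libraries (log2 difference 0.61 ± 0.17 SE, adjusted p = 0.0386). It kept its call in 3 of the 7 alternatives with all libraries. Of the other 3 A-type genes, 2 fell and 1 did not pass. Hnrnpa2b1 had 157 and 154 FPKM in the 5-FU libraries, against 357 and 232 FPKM in the PBS libraries and fell (log2 difference -0.88 ± 0.23 SE, adjusted p = 0.0299), with the call lost when the exonic length trend was removed and with no filter. Hnrnpa3 had 80.5 and 82.7 FPKM in the 5-FU libraries, against 163 and 146 FPKM in the PBS libraries and fell (log2 difference -0.91 ± 0.11 SE, adjusted p = 0.00509). Hnrnpa0, an intronless gene, had 103 and 107 FPKM in the 5-FU libraries, against 126 and 87.8 FPKM in the PBS libraries (log2 difference -0.01 ± 0.20 SE, adjusted p = 0.984). As a ratio of FPKM within a library, Hnrnpa1 stood at 3.81 and 3.98 times Hnrnpa2b1 in the 5-FU libraries, against 1.28 and 1.48 times in the PBS libraries; this ratio was not tested. Hnrnpa1 and Hnrnpa3 share 28.2% and 26.9% of their 50-base stretches with other annotated genes, and their values are uncertain for that reason.

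Hnrnpr fell most in the class. It had 15.7 and 15.9 FPKM in the 5-FU libraries, against 57.4 and 46.5 FPKM in the PBS libraries, 3.29-fold lower after 5-FU (log2 difference -1.65 ± 0.14 SE, adjusted p = 0.00312). The H genes, whose products bind runs of guanines, were all lower in both 5-FU libraries than in both PBS libraries. Hnrnph2 had 7.96 and 9.63 FPKM in the 5-FU libraries, against 19.7 and 20.5 FPKM in the PBS libraries (log2 difference -1.11 ± 0.14 SE, adjusted p = 0.00517). Hnrnph3 had 3.11 and 3.17 FPKM in the 5-FU libraries, against 8.17 and 5.39 FPKM in the PBS libraries (log2 difference -0.89 ± 0.21 SE, adjusted p = 0.0248; lost with no filter and with quantile normalization). Hnrnph1 had 38.7 and 40.7 FPKM in the 5-FU libraries, against 102 and 46.4 FPKM in the PBS libraries but did not pass (log2 difference -0.78 ± 0.38 SE, adjusted p = 0.147). Hnrnpf, the other G-run binder, had 81.1 and 82.8 FPKM in the 5-FU libraries, against 73.9 and 69.2 FPKM in the PBS libraries; it did not pass (log2 difference 0.19 ± 0.10 SE, adjusted p = 0.173), and 43.2% of its 50-base stretches are shared with other genes.

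The CA-repeat binders Hnrnpl and Hnrnpll both fell. Hnrnpll had 21.9 and 23.2 FPKM in the 5-FU libraries, against 50.6 and 46.3 FPKM in the PBS libraries (log2 difference -1.07 ± 0.11 SE, adjusted p = 0.00391). Hnrnpl had 41.0 and 39.5 FPKM in the 5-FU libraries, against 75.0 and 60.3 FPKM in the PBS libraries (log2 difference -0.73 ± 0.14 SE, adjusted p = 0.0145). Both U-like genes fell as well, and the 5-FU libraries lay below both PBS libraries in each of these 4 genes. Hnrnpul1 had 45.8 and 44.2 FPKM in the 5-FU libraries, against 72.2 and 73.3 FPKM in the PBS libraries (log2 difference -0.68 ± 0.10 SE, adjusted p = 0.00697). Hnrnpul2 had 27.6 and 29.5 FPKM in the 5-FU libraries, against 55.3 and 46.8 FPKM in the PBS libraries (log2 difference -0.81 ± 0.13 SE, adjusted p = 0.00855). Hnrnpu itself, a nuclear matrix protein gene, had overlapping groups, at 20.8 and 22.7 FPKM in the 5-FU libraries, against 39.3 and 19.7 FPKM in the PBS libraries (log2 difference -0.34 ± 0.33 SE, adjusted p = 0.42). The C-rich binder Hnrnpk and Hnrnpm had log2 differences of -0.32 and 0.31 and did not pass (adjusted p = 0.0655 and 0.43).

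Some abundant members rose while others fell. The summed level of the Hnrnp class was 2397 and 2472 FPKM in the 5-FU libraries, against 2457 and 1851 FPKM in the PBS libraries. The groups overlapped, and the PBS sums lay further apart than the 5-FU sums. The share of that sum held by Hnrnpa1 was 25.0% and 24.8% in 5-FU, against 18.6% and 18.5% in PBS. Leaving out PBS replicate 1 gave 8 higher, 11 lower and a median log2 difference of -0.24, and leaving out PBS replicate 2 gave 5, 13 and -0.75. With the exonic length trend removed the median was -0.29. Leaving out 5-FU replicate 1 gave 1 and 0 (limma; 3 and 7 unadjusted), and leaving out 5-FU replicate 2 gave 1 and 1 (3 and 7 unadjusted).

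**Figure D4:**
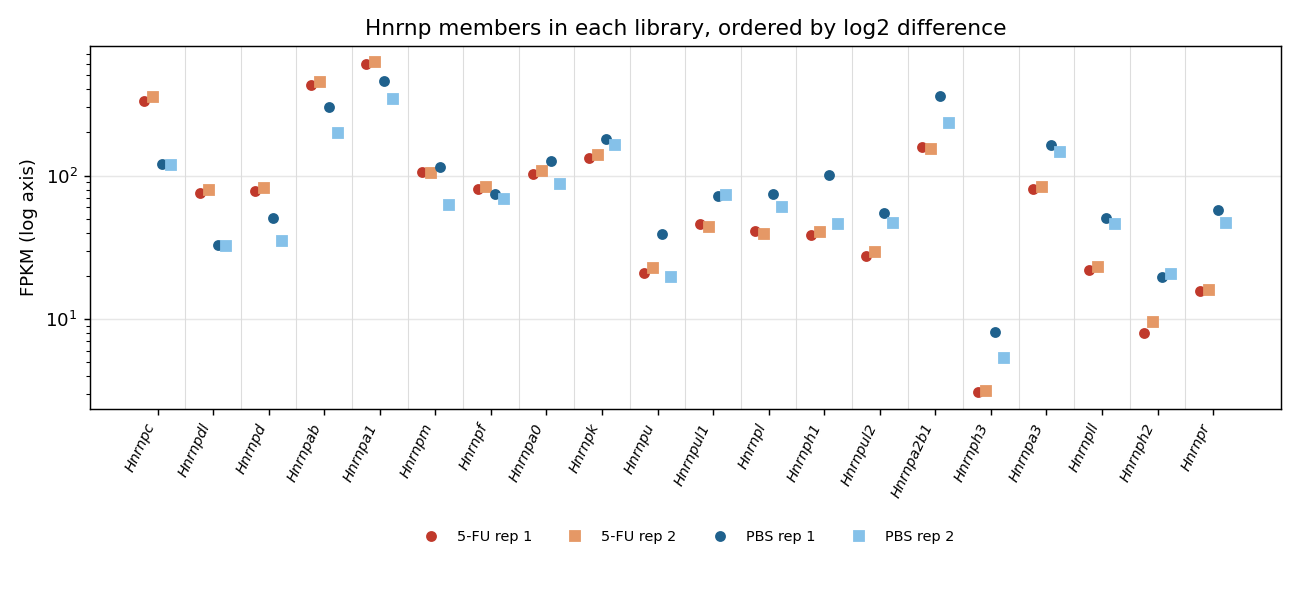
FPKM of the 20 Hnrnp genes in each library on a log axis, ordered from the largest rise to the largest fall; red and orange are 5-FU replicates 1 and 2, dark and light blue PBS replicates 1 and 2. Hnrnpc, Hnrnpdl, Hnrnpd, Hnrnpab and Hnrnpa1 at the left rose, and the 5-FU points of Hnrnpr at the right (15.7 and 15.9 FPKM) lie far below the PBS points (57.4 and 46.5 FPKM).

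The other genes of splicing were counted from 8 lists, 175 genes in all. Of the 169 tested, 57 rose and 22 fell (beside 22.1% and 31.2% of all tested genes). For fits with a library left out, the shares of all tested genes given above belong beside the counts of every list. Leaving out PBS replicate 1 gave 106 higher and 35 lower, leaving out PBS replicate 2 gave 86 and 46, and leaving out 5-FU replicate 1 or 2 gave 2 and 0 or 2 and 2. The Prp19 complex and catalytic step proteins, which remodel and activate the spliceosome, gave the most rises: 18 of 26 rose, 0 fell (limma; 0 also at an unadjusted p under 0.05) and the median log2 difference was 0.59. In this list 22 passed as higher and 1 as lower with PBS replicate 1 left out, 20 and 2 with PBS replicate 2 left out, and 0 in both directions with either 5-FU library left out. Rbm22, which contacts the snRNA at the catalytic centre, had 42.9 and 42.4 FPKM in the 5-FU libraries, against 17.4 and 10.7 FPKM in the PBS libraries (log2 difference 1.57 ± 0.24 SE, adjusted p = 0.00747). Bud31 and Syf2, further proteins of the activated spliceosome, rose with log2 differences of 1.29 and 1.22 (adjusted p = 0.00858 and 0.0055).

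Shares over all tested genes were 22.1% that rose and 31.2% that fell. Of 33 core snRNP and minor spliceosome proteins outside the prefixes, 10 rose, 1 fell and 22 did not pass. With PBS replicate 1 or 2 left out 21 and 4 or 16 and 5 passed, and with either 5-FU library left out 0 and 0. The 3 largest rises were in genes of the minor spliceosome, which removes the rare U12-type introns. Snrnp48 had 47.4 and 51.6 FPKM in the 5-FU libraries, against 12.3 and 17.9 FPKM in the PBS libraries (log2 difference 1.67 ± 0.20 SE, adjusted p = 0.00493). Rnpc3 had 13.3 and 13.1 FPKM in the 5-FU libraries, against 5.19 and 2.61 FPKM in the PBS libraries (log2 difference 1.59 ± 0.28 SE, adjusted p = 0.0112). Zcrb1 had 36.1 and 39.0 FPKM in the 5-FU libraries, against 14.8 and 13.4 FPKM in the PBS libraries (log2 difference 1.35 ± 0.12 SE, adjusted p = 0.0032). All 3 are proteins of the U11 and U12 di-snRNP, and both 5-FU libraries were above both PBS libraries in each. Pdcd7, a further minor spliceosome gene of the list, rose with a log2 difference of 1.11 (adjusted p = 0.0039). Snrnp25, Snrnp35, Zmat5, Zrsr1 and Zrsr2 did not pass, with log2 differences of -0.02, 0.03, 0.05, -0.11 and -0.05 (adjusted p = 0.908, 0.874, 0.785, 0.693 and 0.816). Luc7l2, a U1-associated protein gene, was the gene that fell, at 9.06 and 9.65 FPKM in the 5-FU libraries, against 23.3 and 18.7 FPKM in the PBS libraries (log2 difference -1.08 ± 0.15 SE, adjusted p = 0.00639).

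Of 13 LSm genes, relatives of the Sm genes, 7 rose and 3 fell (1 and 0 with 5-FU replicate 1 left out, 1 and 2 with 5-FU replicate 2 left out). Beside these LSm counts, 22.1% of all tested genes rose and 31.2% fell. Lsm12 and Lsm3 rose with log2 differences of 1.61 and 1.24, and Lsm7 with 0.88 (limma, adjusted p = 0.0027, 0.003 and 0.00634). Lsm3 and Lsm7 belong to the ring on U6. Lsm10 and Lsm11, which replace D-type Sm proteins in the U7 snRNP that processes histone mRNA, went the other way. Lsm10 had 2.65 and 2.88 FPKM in the 5-FU libraries, against 12.7 and 16.2 FPKM in the PBS libraries (log2 difference -2.03 ± 0.17 SE, adjusted p = 0.00287). Lsm11 had 0.46 and 0.554 FPKM in the 5-FU libraries, against 3.91 and 4.72 FPKM in the PBS libraries (log2 difference -1.81 ± 0.15 SE, adjusted p = 0.00287). Lsm11 reached the level for testing through the PBS libraries alone. Lsm14b, a gene of cytoplasmic mRNA granules, fell too (log2 difference -0.75, adjusted p = 0.0084).

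Assembly of the Sm ring needs the SMN complex and its partners. Of 15 tested assembly genes, 4 rose and 1 fell, beside 22.1% of all tested genes that rose and 31.2% that fell. With PBS replicate 1 left out 8 and 1 passed, with PBS replicate 2 left out 6 and 6, and with either 5-FU library left out 0 and 0. Smn1 had 42.9 and 42.4 FPKM in the 5-FU libraries, against 23.1 and 14.9 FPKM in the PBS libraries (log2 difference 1.15 ± 0.22 SE, adjusted p = 0.0137). Coil, which encodes the Cajal body scaffold coilin, had 5.55 and 5.51 FPKM in the 5-FU libraries, against 1.53 and 1.3 FPKM in the PBS libraries (log2 difference 1.44 ± 0.13 SE, adjusted p = 0.00343). Phax, the snRNA export adaptor gene, rose with a log2 difference of 1.21 (adjusted p = 0.0036). Gemin8, a subunit gene of the SMN complex, fell with -0.64 (adjusted p = 0.0132). Its 5-FU values were 0.665 and 0.634 FPKM, so it reached the level for testing through the PBS libraries alone.

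Of all tested genes, 22.1% rose and 31.2% fell. Of 22 tested SR-related proteins and SR kinases, 3 rose, 7 fell and 12 did not pass, so both directions occurred, as among the Srsf genes. Those counts were 8 and 11 or 9 and 12 with PBS replicate 1 or 2 left out, and 0 and 0 with either 5-FU library left out. The kinases that phosphorylate SR proteins included the largest falls, but they did not all fall. Clk1, Srpk1 and Clk4 did not pass, with log2 differences of -0.02, -0.24 and 0.77 (limma, adjusted p = 0.948, 0.39 and 0.0591). In Clk4 both 5-FU libraries lay above both PBS libraries. Clk2 and Dyrk1a fell with log2 differences of -0.67 and -0.62 (limma, adjusted p = 0.0264 and 0.0241). Clk3 had 6.85 and 6.3 FPKM in the 5-FU libraries, against 22.3 and 30.8 FPKM in the PBS libraries (log2 difference -1.85 ± 0.19 SE, adjusted p = 0.00383). Srpk2 had 3.48 and 3.7 FPKM in the 5-FU libraries, against 11.6 and 16.5 FPKM in the PBS libraries (log2 difference -1.70 ± 0.20 SE, adjusted p = 0.00476). Sfswap, Acin1 and Rnps1 rose with log2 differences of 1.52, 1.34 and 1.23 (adjusted p = 0.00668, 0.00534 and 0.00401).

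The counts of each list in this paragraph stand beside 22.1% of all tested genes that rose and 31.2% that fell. Among 36 tested regulators of alternative splicing, 6 rose, 8 fell and 22 did not pass. The numbers higher and lower were 22 and 10 or 12 and 13 with PBS replicate 1 or 2 left out, and 0 and 0 with either 5-FU library left out. The helicase gene Ddx17 had 21.4 and 22.3 FPKM in the 5-FU libraries, against 94.8 and 57.1 FPKM in the PBS libraries (log2 difference -1.71 ± 0.26 SE, adjusted p = 0.00747). Tia1 and Mbnl1, which encode RNA-binding regulators of exon choice, fell with log2 differences of -1.48 and -1.14 (adjusted p = 0.00501 and 0.00521), while Fubp1, Elavl1 and Ptbp2 rose with 0.99, 0.94 and 0.73 (adjusted p = 0.0359, 0.00529 and 0.00856). Of 14 exon junction and mRNA export genes, 5 rose and 1 fell (12 and 1 with PBS replicate 1 left out, 11 and 1 with PBS replicate 2 left out, 1 and 0 with either 5-FU library left out). Alyref, an export adaptor gene, had 104 and 101 FPKM in the 5-FU libraries, against 35.4 and 29.2 FPKM in the PBS libraries (log2 difference 1.64 ± 0.13 SE, adjusted p = 0.00287), and Magoh, an exon junction core gene, had 244 and 264 FPKM in the 5-FU libraries, against 118 and 94.4 FPKM in the PBS libraries (log2 difference 1.26 ± 0.15 SE, adjusted p = 0.00486). Thoc2 fell, at 2.98 and 3.13 FPKM in the 5-FU libraries, against 12.1 and 9.21 FPKM in the PBS libraries (log2 difference -1.51 ± 0.17 SE, adjusted p = 0.0045). Of 10 nonsense-mediated decay genes, 4 rose and 1 fell (5 and 4 with either PBS library left out, 0 and 0 with either 5-FU library left out), with Smg8 the largest rise and Smg1 the fall (log2 differences 1.21 and -0.54, adjusted p = 0.00352 and 0.0261).

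Transcript length moved with these results. Snrp genes are short, with a median of 2335 exonic bases among the tested, against 5898 for Hnrnp and 4115 for all tested genes. Across the 67 members the log2 difference was lower in genes with longer exons (Pearson r = -0.42 with log10 length, Spearman rho = -0.44), and across all 11644 tested genes likewise (r = -0.28, rho = -0.29). These are descriptions across genes of the same libraries. Members' genomic span showed a weaker relation (r = -0.14, rho = -0.11). Across all 11644 tested genes the relation with span (r = -0.28, rho = -0.29) was about as strong as that with exonic length. With the exonic length trend removed, 24 members rose and 11 fell, and the medians of the Snrp, Sf3 and Hnrnp classes were 0.53, 0.74 and -0.29. The part of RNA quality or library preparation in the length trend was not tested.

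**Figure D5:**
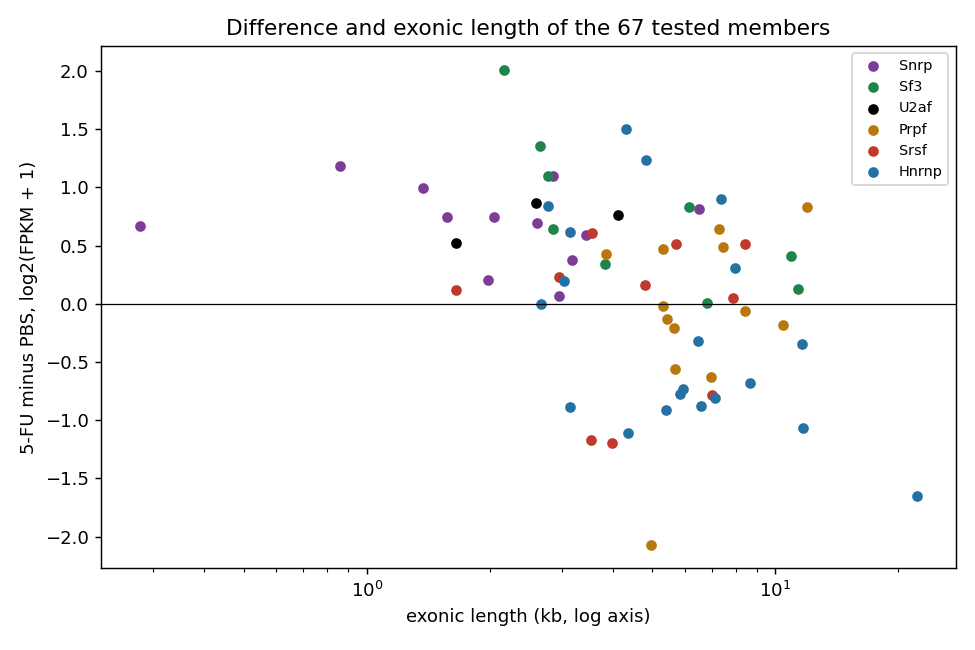
Log2 difference (5-FU minus PBS, log2(FPKM + 1) scale) against exonic length in kb on a log axis for the 67 tested members, coloured by prefix class. Members with under 3 kb of exons lie mostly above 0 and the longest, Hnrnpr, lies at -1.65.

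Sequence shared with pseudogenes limits single values for some members. In 20 of the 67 tested, over 5% of exonic 50-base stretches also occur in another annotated gene that does not overlap them. The highest shares among called members were in Snrpert (55.7%), Sf3b4 (43.6%), Hnrnpa1 (28.2%), Hnrnpa3 (26.9%), U2af1 (21.7%) and Snrpf (21.3%). Gm13092, the copy that shares most with Snrpf, had 7.79 and 6.87 FPKM in the 5-FU libraries, against 4.5 and 2.76 FPKM in the PBS libraries, and Gm10052, the copy of Hnrnpa1, had 16.4 and 18.8 FPKM in the 5-FU libraries, against 10.5 and 8.28 FPKM in the PBS libraries. In each case the copy stood far below the member. The sources used here do not say how such reads were counted.

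Of the members, 14 start within 1000 bases of a protein-coding gene that runs the other way and was found by name in the gene table. Of these neighbours, 12 were tested, 3 rose and 2 fell, beside 22.1% of all tested genes that rose and 31.2% that fell. Hnrnpd also has such a neighbour, 4930524J08Rik at 123 bases, which was not found by that name. Hnrnpa2b1 and Cbx3, which encodes a heterochromatin protein, start 466 bases apart. Hnrnpa2b1 fell, while Cbx3 had 37.1 and 37.5 FPKM in the 5-FU libraries, against 31.2 and 31.3 FPKM in the PBS libraries (log2 difference 0.25 ± 0.10 SE, adjusted p = 0.0974). Hnrnpa1 starts 616 bases from Cbx5, a relative of Cbx3, which had 55.4 and 60.2 FPKM in the 5-FU libraries, against 48.8 and 39.6 FPKM in the PBS libraries (log2 difference 0.39 ± 0.14 SE, adjusted p = 0.0791). Prpf4 fell whereas Cdc26, 155 bases away, rose (6.85 and 6.32 FPKM in the 5-FU libraries, against 3.56 and 3.76 FPKM in the PBS libraries, log2 difference 0.70 ± 0.13 SE, adjusted p = 0.0128). Prpf38a did not pass whereas Orc1, a replication origin gene 87 bases away, rose (33.3 and 34.0 FPKM in the 5-FU libraries, against 17.1 and 9.62 FPKM in the PBS libraries, log2 difference 1.32 ± 0.27 SE, adjusted p = 0.0166). Of the 3 pairs in which both genes passed, 1 moved the same way and 2 moved in opposite ways. Hnrnpul2 and Ttc9c both fell (log2 differences -0.81 and -0.72). The opposite pairs were Prpf4 with Cdc26, and Sf3a1 with Ccdc157 (log2 differences 0.83 and -0.64).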

How the data were processed

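The authors deposited FPKM values per gene for 4 libraries of polyadenylated RNA, 2 treated with 5-FU and 2 with PBS. STAR 2.4.1a, Picard 2.9.0 and build GRCm38 are named in the submitters' processing notes without roles; the sources used here name no counting program, annotation or strand setting. Gene IDs were matched to GENCODE M21 on GRCm38, which held 36379 of 36445. Depth was estimated from FPKM steps (value times exonic length); 63.1% to 65.1% of values under 100 reads lay within 0.02 of a whole read. Over genes of 20 to 200 estimated reads, the mean chi-square per gene between replicates was 1.57 for the 5-FU pair and 13.4 for the PBS pair. The 5-FU libraries thus lie close to counting error; they were counted as 2 samples as labelled, and their spread may be technical.

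The comparison used limma 3.58.1 in R 4.3.3 (lmFit, eBayes with intensity trend) on log2(FPKM + 1), keeping genes that reached 1 FPKM in 2 or more libraries. Differences on this scale understate changes of low genes. A fold is the ratio of the group means in FPKM. The fit was tested on simulated data. A permutation test of 2 against 2 libraries could not pass the threshold and was not run. Named in each class were up to 6 called members per direction, the 2 most abundant and the 2 that did not pass with the smallest difference, and from each other list up to 3 called genes per direction; any further gene was chosen after its values were seen. The 7 motifs and 7 printed windows were also chosen after the calls were seen, and the removal of the exonic length trend was added after seeing the data. Members and lists were chosen with earlier results of these data known. The values of 1 member, which is counted in its class, are not reported here. Shared sequence was counted as exact 50-base stretches of GENCODE M21 transcripts, on both strands.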

Additional observations from a re-analysis of the deposited data

How the results depend on the processing

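Alternatives changed 1 setting at a time: pseudocount 0.1, no filter on low values, median-ratio scaling, quantile normalization, the replicate block, removal of the gene span trend, removal of the exonic length trend, and leaving out each library. Of the 39 calls, 24 (15 higher, 9 lower) passed in all 7 alternatives that kept every library, and among called members only Snrpert turned sign (-0.017 with the exonic length trend removed). Median-ratio scaling moved the median of all tested genes from -0.10 to 0.01 and counted 32 members higher and 15 lower. Dropping the filter on low values gave 18 higher and 9 lower of 68 members, with 23640 genes tested, of which 10% and 12% passed as higher and lower. The Srsf class then had 2 higher of 11 tested, so the 18 are not all among the calls of the main fit. Same-numbered libraries did not deviate together (r = -0.01 across tested genes), the labels do not say that a number marks a shared culture, and the replicate block gave 26 higher and 15 lower. Leaving out each library in turn gave 1 to 42 members higher and 0 to 26 lower, and 2 to 106 genes higher and 0 to 46 lower in the 8 lists. Class medians then ranged from 0.67 to 0.76 for Snrp, from 0.53 to 0.82 for Sf3, from 0.39 to 1.00 for U2af, from -0.23 to 0.14 for Prpf, from -0.27 to 0.50 for Srsf, from -0.75 to -0.24 for Hnrnp. The Prpf median turned positive with median-ratio scaling (0.058), quantile normalization (0.067) and the gene span (0.053) or exonic length (0.13) trend removed, and the Srsf median negative with quantile normalization (-0.062). The Snrp median moved to 0.84, 0.45 and 0.53 with median-ratio scaling, quantile normalization and the exonic length trend removed. With median-ratio scaling, genes that had not passed changed sign, at 0.12 for Hnrnpa0, 0.092 for Prpf38a, 0.058 for Prpf4b. With quantile normalization, genes that had not passed changed sign, at 0.067 for Prpf31, 0.20 for Prpf38a, -0.14 for Sf3b1, -0.28 for Sf3b2, -0.089 for Snrpa, -0.096 for Snrpb, -0.074 for Srsf3, -0.051 for Srsf6, -0.10 for Srsf9. With the gene span trend removed, genes that had not passed changed sign, at 0.053 for Prpf4b, -0.0082 for Srsf3. With the exonic length trend removed, genes that had not passed changed sign, at 0.0051 for Hnrnpu, 0.070 for Prpf38a, 0.18 for Prpf4b, -0.048 for Snrpa, -0.015 for Snrpb, -0.14 for Srsf9. With a library left out, other such genes changed sign, with ranges of -0.26 to 0.25 for Hnrnpa0, -0.13 to 0.75 for Hnrnpm, -0.83 to 0.14 for Hnrnpu, -0.43 to 0.0044 for Prpf3, -0.40 to 0.14 for Prpf31, -0.079 to 0.033 for Prpf38a, -0.35 to 0.23 for Prpf4b, -0.075 to 0.33 for Sf3b1, -0.012 to 0.029 for Sf3b2, -0.036 to 0.18 for Snrpa, -0.10 to 1.12 for Srsf1, -0.35 to 0.82 for Srsf2, -0.18 to 0.28 for Srsf3, -0.56 to 0.88 for Srsf6, -0.13 to 0.36 for Srsf9. The cause of these changes was not tested. Srsf12 alone among the members did not reach the level for testing. The smallest estimated number of reads of a tested member in any library was 63.3, in Prpf40b, and the part of depth in these results was not tested.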
